A study of Mus musculus with 32 samples.

Results

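The response of NFKBIZ flox chondrocytes to IL-1β was measured in 4 of the 32 RNA sequencing libraries of the series, which were chosen by their labels for genotype (NFKBIZ flox) and treatment (GFP, or GFP + IL-1β). The cells were primary chondrocytes of newborn C57BL/6 pups, labelled as sternal (the general methods of the study name sterna and ribs), and kept unpassaged in normoxia. Both groups carried a floxed Nfkbiz allele, which Cre recombinase can delete, and both were infected for 24 h with an adenovirus that carries GFP and no Cre, so that Nfkbiz was left intact. The GFP group (2 libraries) then had no cytokine, and the GFP + IL-1β group (2 libraries) had 10 ng/mL IL-1β for 24 h. Responses were compared with those of LDHA flox and NAMPT flox chondrocytes given the same virus and cytokine, each with 2 libraries untreated and 2 with IL-1β. For the response the estimate of spread also drew on 4 NFKBIZ flox libraries given a Cre adenovirus, which deletes Nfkbiz, untreated or with IL-1β. Wild-type libraries without virus, untreated or labelled IL-1β, are quoted as values and entered no test. The sources used here name no separate animals or cultures for the libraries of a group. The p-values therefore measure the spread between libraries, which may be technical.

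IL-1β is a cytokine of joint inflammation that signals through its receptor to NF-κB and to the kinases that feed the AP-1 factors. In chondrocytes it is known to raise chemokines, acute-phase proteins and matrix-degrading proteases and to lower the collagens and proteoglycans of cartilage. Nfkbiz encodes IκBζ, an atypical nuclear IκB protein that is itself induced by IL-1β and acts with NF-κB on a part of its targets.

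Levels are given in CPM, a gene's count of uniquely aligned reads relative to the total of its library after TMM scaling, and 2 values for a group are its 2 libraries. Library totals ranged from 20625238 to 25632928 counts in the 4 NFKBIZ flox libraries and from 15830658 to 39959888 in the 8 libraries of the other lines. Replicates lay close together, with a median absolute log2 difference of 0.0989 between the GFP libraries and 0.0781 between the GFP + IL-1β libraries over 8930 genes above 10 CPM. Their counts differed by more than sampling noise, with chi-square statistics that averaged 30.8 and 7.72 per gene (medians 1.95 and 1.42). A gene is called changed at a Benjamini-Hochberg adjusted p of 0.05 or less in edgeR's quasi-likelihood test, two-sided.

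The labelled cell type was checked with markers. All 12 chondrocyte markers were measured, with a summed level of 81097 and 91912 CPM in the GFP libraries, and Col2a1, the main cartilage collagen, alone stood at 51665 and 59434 CPM. Markers of other cell types were far lower. The 7 fibroblast or perichondrium markers summed to 983 and 1170.2 CPM, the 10 leukocyte markers to 25.9 and 23.8 CPM and the 5 endothelial markers to 3.66 and 4.43 CPM. The 6 muscle markers summed to 86.0 and 72.1 CPM and the 5 osteoblast markers to 20.7 and 24.2 CPM. With IL-1β all 12 chondrocyte markers fell, to sums of 32514 and 30465 CPM, while the leukocyte sum was 51.9 and 48.9 CPM. The sum of the 4 adipocyte markers was 13.7 and 15.3 CPM and then 63.0 and 63.6 CPM, nearly all of it from the fatty acid binding protein Fabp4 (62.3 and 62.4 CPM with IL-1β), and that of the 6 muscle markers 86.0 and 72.1 CPM and then 11.0 and 13.0 CPM. The part of these shifts in the response was not tested. In bulk RNA, fewer cells of a type and less RNA per cell cannot be told apart.

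IL-1β changed 4120 of 15356 genes tested (26.8%), 2330 of them higher (15.2%) and 1790 lower (11.7%). The rises were larger than the falls: 366 genes rose by more than 2 on the log2 scale and 111 fell by more than 2, and 41 genes rose by more than 6 while 2 fell by more than 6. The median log2 fold change of all genes tested was 0.00.

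The 10 genes with the smallest p among those that rose were secreted proteins of the acute phase and innate defence, a protease and a chemokine, with 1 pantetheinase. Hp (ENSMUSG00000031722, chr8:109575130-109579172), the haemoglobin-binding protein haptoglobin, stood at 2.77 and 2.33 CPM without IL-1β and 1872 and 1853 CPM with it (log2 fold change 9.51, SE 0.16, adjusted p = 2.23e-12). Saa3 (ENSMUSG00000040026, chr7:46711998-46715676), an acute-phase serum amyloid A, went from 3.96 and 3.62 CPM to 3488 and 3609 CPM (log2 fold change 9.87, SE 0.18, adjusted p = 2.23e-12). In both genes the treated libraries lay far above the untreated ones, with almost no spread between replicates.

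Mmp3 (ENSMUSG00000043613, chr9:7445822-7455972), the protease stromelysin, measured 1.79 and 2.66 CPM untreated and 1744 and 1731 CPM with IL-1β (log2 fold change 9.60, SE 0.18, adjusted p = 2.23e-12). Cxcl1 (ENSMUSG00000029380, chr5:90891241-90893115), a neutrophil-attracting chemokine, measured 0.511 and 0.523 CPM and then 557 and 512 CPM (log2 fold change 10.00, SE 0.19, adjusted p = 2.23e-12). Both genes were close to 0 in the untreated libraries, and their replicates lay together in each group. Chil1 (ENSMUSG00000064246, chr1:134182176-134190181), the chitinase-like protein also known as YKL-40 in human cartilage, was already at 41.8 and 40.9 CPM untreated and reached 5830.1 and 6012 CPM (log2 fold change 7.16, SE 0.14, adjusted p = 3.71e-12).

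Lcn2 (ENSMUSG00000026822, chr2:32384633-32387797), the iron-sequestering protein lipocalin 2, measured 34.6 and 35.3 CPM untreated and 7043 and 7275 CPM with IL-1β (log2 fold change 7.68, SE 0.20, adjusted p = 5.72e-11). Complement component C3 (3.32 and 2.98 CPM against 904 and 860.0 CPM), the protease inhibitor Slpi (8.09 and 9.3 against 1126 and 1229 CPM), the lipopolysaccharide-binding protein Lbp (3.58 and 2.25 against 723 and 691 CPM) and the pantetheinase Vnn1 (12.7 and 11.3 against 457 and 473 CPM) completed the group. In none of the 10 did the untreated and treated libraries overlap, which their choice by smallest p made likely and which is no further test.

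**Figure D1:**
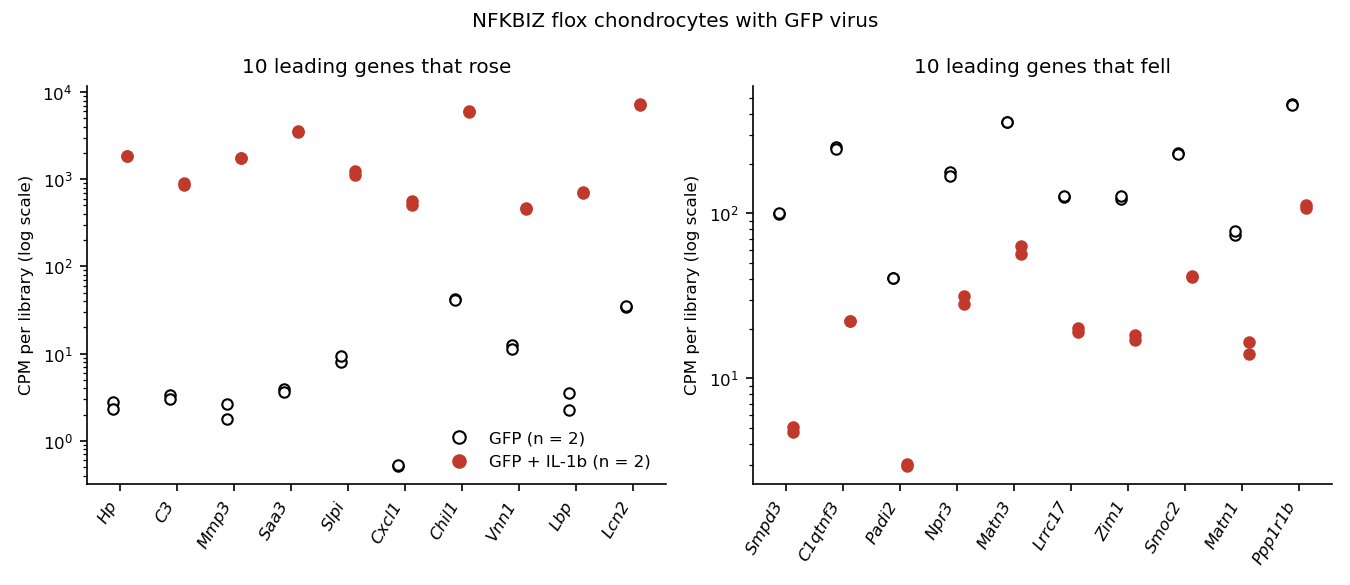
Levels of the 10 rising and 10 falling genes with the smallest p in NFKBIZ flox chondrocytes with GFP virus, in CPM per library on a log axis. Open points are the 2 GFP libraries and filled points the 2 GFP + IL-1β libraries, and in every gene the 2 pairs are separated by far more than the spread within a pair, as for Hp (2.77 and 2.33 against 1872 and 1853 CPM) and Smpd3 (99.6 and 101 against 4.71 and 5.04 CPM).

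The 10 falling genes with the smallest p included cartilage matrix proteins and genes of growth plate signalling. Smpd3 (ENSMUSG00000031906, chr8:106252548-106337988), the neutral sphingomyelinase needed for skeletal mineralization, fell from 99.6 and 101 CPM to 4.71 and 5.04 CPM (log2 fold change -4.36, SE 0.12, adjusted p = 7.99e-11). C1qtnf3 (ENSMUSG00000058914, chr15:10952332-10980150), a secreted C1q-like protein of cartilage, fell from 252 and 245 CPM to 22.2 and 22.3 CPM (log2 fold change -3.48, SE 0.11, adjusted p = 3.48e-10). Matn3 (ENSMUSG00000020583, chr12:8947929-8972028), the matrix protein matrilin 3, fell from 360.0 and 356 CPM to 63.1 and 56.5 CPM (log2 fold change -2.58, SE 0.10, adjusted p = 2.46e-09). The groups did not overlap in these genes, which were likewise chosen by p.

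Matrilin 1 (Matn1, 74.1 and 77.9 against 16.5 and 14.1 CPM) and the calcium-binding matrix protein Smoc2 (234 and 229 against 41.0 and 41.7 CPM) fell in like manner. So did the natriuretic peptide clearance receptor Npr3 (179 and 169 against 28.1 and 31.5 CPM) and the peptidylarginine deiminase Padi2 (40.8 and 40.5 against 2.93 and 3.02 CPM). Lrrc17, Zim1 and Ppp1r1b, the phosphatase regulator DARPP-32, had log2 fold changes of -2.68, -2.82 and -2.04. Smpd3, Padi2, Lrrc17 and Ppp1r1b overlap genes on the opposite strand. The study counted unambiguous reads only, and no source used here says if reads were assigned by strand. If strand was ignored, reads on exons of both genes were left out of the counts. Reads on exons of 1 gene alone were then counted for it, whichever strand they came from.

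Promoters are shown for 4 of the rising genes that led the comparisons and hold a motif of NF-κB or AP-1, the factor families that IL-1β is known to activate. The windows run from 250 bases before to 50 after the first start that RefSeq lists for a gene (GRCm38.p6), they are written in the direction of the gene, and capitals mark the matches. Both strands were searched for the NF-κB consensus decamer and for TGANTCA, the AP-1 core. Of the 46 genes that lead the comparisons here, 34 had a promoter in the table, and 11 of these held a match, the falling genes Padi2 and Matn3 and the smaller rises Chil1, Hspa1a and Hspa1b among them. The Cxcl1 window (chr5:90890995-90891294, + strand) holds 2 overlapping decamers, 1 on each strand, from position -71 from the start, and the Steap4 window (chr5:7960222-7960521, + strand) holds decamers from -250 and -226. Mmp3 (chr9:7445572-7445871, + strand) has the AP-1 core from -46 and Mmp13 (chr9:7272264-7272563, + strand) from -35.
Cxcl1: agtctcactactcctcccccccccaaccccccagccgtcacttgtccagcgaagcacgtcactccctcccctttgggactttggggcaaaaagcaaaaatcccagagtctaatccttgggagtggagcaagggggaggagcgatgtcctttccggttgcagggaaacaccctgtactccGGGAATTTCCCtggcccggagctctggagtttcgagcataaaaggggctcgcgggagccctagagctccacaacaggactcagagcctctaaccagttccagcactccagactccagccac
Steap4: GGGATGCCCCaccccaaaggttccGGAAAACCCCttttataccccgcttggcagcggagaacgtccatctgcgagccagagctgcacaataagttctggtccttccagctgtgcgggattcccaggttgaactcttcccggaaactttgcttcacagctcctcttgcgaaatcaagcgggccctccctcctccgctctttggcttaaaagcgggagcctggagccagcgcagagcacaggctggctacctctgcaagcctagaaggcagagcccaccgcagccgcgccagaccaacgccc
Mmp3: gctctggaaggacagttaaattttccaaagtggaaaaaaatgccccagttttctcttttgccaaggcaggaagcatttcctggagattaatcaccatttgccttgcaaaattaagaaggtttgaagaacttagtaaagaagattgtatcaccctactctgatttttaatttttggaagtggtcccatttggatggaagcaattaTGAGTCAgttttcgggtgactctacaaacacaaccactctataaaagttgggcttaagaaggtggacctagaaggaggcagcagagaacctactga
Mmp13: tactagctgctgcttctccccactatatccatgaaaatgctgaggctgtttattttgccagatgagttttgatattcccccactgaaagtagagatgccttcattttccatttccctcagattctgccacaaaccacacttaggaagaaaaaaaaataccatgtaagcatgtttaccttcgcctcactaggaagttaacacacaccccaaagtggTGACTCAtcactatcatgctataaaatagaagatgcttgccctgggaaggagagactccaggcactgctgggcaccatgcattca
The AP-1 core was in 4.91% of the 10844 promoters of tested genes, in 5.82% of 1752 genes that rose, in 13.3% of 249 that rose by more than 2 on the log2 scale and in 5.16% of 1357 that fell. The NF-κB decamer was in 10.1%, 12.6%, 18.5% and 11.0% of the same groups. A match describes these letters only, and binding was not measured.

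Most NF-κB regulators rose. Nfkbiz (ENSMUSG00000035356, chr16:55811375-55838899), the gene floxed in this line, stood at 15.4 and 16.2 CPM without IL-1β and 226 and 221 CPM with it (log2 fold change 3.82, SE 0.11, adjusted p = 1.49e-10), with no overlap. Of the 36 listed NF-κB subunits, IκB proteins and feedback regulators, 26 rose, 2 fell and 8 did not pass the test, with a median log2 fold change of 0.96. Over all genes tested 15.2% rose and 11.7% fell. The RNase Zc3h12a (Regnase-1), which degrades cytokine transcripts, rose by 4.80, the atypical IκB protein Bcl3 by 4.54 and the classical inhibitor Nfkbia (IκBα) by 2.75 on the log2 scale. The kinase inhibitor Irak3, also named IRAK-M, rose by 2.97 and the ubiquitin ligase Birc3 by 2.34.

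Among the AP-1, C/EBP and other induced regulators 20 of 24 rose and 1 fell (15.2% and 11.7% of all genes tested), with a median of 1.04. Cebpd, a factor of the acute-phase response, measured 27.6 and 30.5 CPM untreated and 381 and 370.1 CPM with IL-1β (log2 fold change 3.70, SE 0.12, adjusted p = 3.01e-10). Epas1, which encodes HIF-2α, a known driver of cartilage catabolism, measured 10.7 and 11.5 and then 71.4 and 69.6 CPM (log2 fold change 2.67, SE 0.12, adjusted p = 6.46e-09). Junb rose by 2.25 and Fosl2 by 1.76. No library of these 4 genes overlapped the other group.

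Of the lists of pathways and gene classes, chemokines had the highest median, 5.88, with 13 of 16 tested members higher, 1 lower and 2 not called. Over all genes tested 15.2% were higher and 11.7% lower. The list held 26 chemokines, and the others did not exceed 1 CPM in any library of the fit. Among the GFP libraries, members such as Cxcl5 and Ccl20 exceeded it only with IL-1β. The median and the count of rises therefore lean towards genes that rise. The same filter acted on every other list. Cxcl5 measured 0.426 and 0.483 CPM and then 188 and 191 CPM (log2 fold change 8.69, SE 0.23, adjusted p = 7.68e-11), and Ccl2, the monocyte attractant, 1.45 and 1.41 and then 281 and 297 CPM (log2 fold change 7.66, SE 0.27, adjusted p = 8.32e-10). Cxcl2 and Ccl7 rose by 8.50 and 7.30 on the log2 scale, and the membrane-bound chemokine Cx3cl1 by 3.50. Ccl20, the ligand of CCR6, had no count in either untreated library and 8.9 and 5.97 CPM with IL-1β, which is at least 123-fold higher against a floor of 3 counts over the untreated group.

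Of the 33 tested genes of the acute phase and innate defence 29 rose, none fell and 4 did not pass, with a median of 3.99. Over all genes tested 15.2% rose and 11.7% fell. Beside those described above, Steap4, a metalloreductase, passed from 0.724 and 0.805 CPM to 716 and 718 CPM (log2 fold change 9.86, SE 0.27, adjusted p = 7.99e-11). Saa2 had no count in either untreated library and 13.0 and 11.8 CPM with IL-1β, at least 207-fold higher against the same floor. The medians of both lists were the same, 5.88 and 3.99, with Ccl20 and Saa2 at these bounds. Among the NFKBIZ flox GFP libraries, Saa2 and Steap4 exceeded 1 CPM only with IL-1β. The median and the count of rises of the acute-phase list therefore also lean towards genes that rise. Saa2 has a near-identical copy, Saa1, and reads that align to both were not counted, so both may be undercounted.

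Cytokines and their receptors were less uniform, with 21 of 33 tested members (47 listed) higher, 2 lower and 10 not called, and a median of 1.61. Over all genes tested 15.2% were higher and 11.7% lower. Members such as Il6 exceeded 1 CPM among the NFKBIZ flox GFP libraries only with IL-1β, so this count and median lean towards rises too. Il6 measured 0.341 and 0.403 CPM and then 31.9 and 32.5 CPM (log2 fold change 6.42, SE 0.28, adjusted p = 5.45e-09). Lif, another ligand of the gp130 family, measured 6.13 and 6.28 and then 67.7 and 61.1 CPM (log2 fold change 3.38, SE 0.14, adjusted p = 3.77e-09), and Il6st, the shared gp130 receptor chain, rose by 1.60. The receptor chains Il4ra, Il13ra1 and the decoy Il13ra2 rose by 3.65, 2.94 and 6.43.

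Matrix proteases and their inhibitors moved in both directions, with 16 of 28 higher and 6 lower (15.2% and 11.7% of all genes tested) and a median of 0.75. Mmp13 (ENSMUSG00000050578, chr9:7272514-7283333), the main collagenase of cartilage breakdown, measured 47.9 and 46.7 CPM untreated and 560.3 and 548 CPM with IL-1β (log2 fold change 3.55, SE 0.16, adjusted p = 8.44e-09). Adamts5 (ENSMUSG00000022894, chr16:85858170-85901125), an aggrecanase, measured 15.0 and 13.9 and then 86.0 and 80.0 CPM (log2 fold change 2.52, SE 0.14, adjusted p = 6.66e-08). Mmp10 passed from 0.341 and 0.523 CPM to 31.1 and 28.6 CPM, while Timp3, an inhibitor of aggrecanases, fell from 1509.9 and 1476 CPM to 388 and 397 CPM (log2 fold change -1.92, SE 0.10, adjusted p = 2.97e-08). The protease and inhibitor libraries of the 2 conditions did not overlap for these 4 genes, and Timp3 overlaps Syn3 on the opposite strand.

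Cartilage matrix had the lowest median of these lists, -1.27, with 25 of 36 members lower, 6 higher and 5 not called. Over all genes tested 11.7% were lower and 15.2% higher. Acan, the proteoglycan aggrecan, fell from 8791 and 11047 CPM to 2429 and 2108 CPM (log2 fold change -2.13, SE 0.17, adjusted p = 1.45e-06), and Col2a1 fell by 1.38 on the log2 scale. The chondromodulin Cnmd fell from 1613 and 1517 CPM to 350.1 and 351 CPM (log2 fold change -2.16, SE 0.14, adjusted p = 2.24e-07), and Snorc and Col27a1 changed by -1.92 and -1.65 on the log2 scale. Chondrocyte regulators, the SOX factors included, and hypertrophy genes fell in 14 of 23 cases and rose in 3, with a median of -0.80. Fgfr3 (-1.83), Col10a1 (-1.81), Panx3 (-1.95) and the parathyroid hormone receptor Pth1r (-1.22) were among the lower genes, while the secreted phosphoprotein Spp1, osteopontin, measured 325 and 327 CPM and then 1769 and 1593 CPM (log2 fold change 2.37, SE 0.11, adjusted p = 8.99e-09).

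Nitric oxide and prostaglandin genes moved in both directions. Nos2, the inducible nitric oxide synthase, passed from 0.17 and 0.201 CPM to 164 and 163 CPM (log2 fold change 9.74, SE 0.29, adjusted p = 1.8e-10), and Nos1, the neuronal enzyme, from 28.7 and 35.5 CPM down to 4.18 and 2.44 CPM (log2 fold change -3.29, SE 0.22, adjusted p = 2.58e-07). Gch1, which makes a cofactor of nitric oxide synthases, rose by 3.80. Ptgs2, the inducible cyclooxygenase, measured 18.6 and 23.7 and then 190.1 and 177 CPM (log2 fold change 3.12, SE 0.16, adjusted p = 2.75e-08), and the prostaglandin E synthase Ptges 1.11 and 1.17 and then 36.2 and 33.5 CPM (log2 fold change 4.93, SE 0.17, adjusted p = 8.32e-10). In all, 13 of 24 rose and 6 fell (15.2% and 11.7% of all genes tested), with a median of 0.42. Nos1 overlaps Gm26995 on the opposite strand.

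Iron, metal and redox genes rose in 25 of 37 cases and fell in 1 (15.2% and 11.7% of all genes tested), with a median of 0.86. The zinc transporter Slc39a8 (ZIP8) went from 4.3 and 3.1 CPM to 174 and 189 CPM (log2 fold change 5.62, SE 0.17, adjusted p = 1.69e-10). Ferritin heavy chain (Fth1) went from 1825 and 1971 CPM to 14971 and 14629 CPM and the mitochondrial superoxide dismutase Sod2 from 85.5 and 81.7 CPM to 576 and 588 CPM, log2 fold changes of 2.97 and 2.80. The cystine transporter Slc7a11 rose by 2.52. In none of these did the groups overlap.

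Glycolysis and lactate genes rose in 17 of 23 cases and fell in 2 (15.2% and 11.7% of all genes tested), with a median of 0.56, modest beside the inflammatory lists. The lactate transporters Slc16a3 (120.3 and 112 CPM against 405 and 406 CPM) and Slc16a1 (149.8 and 136 against 505 and 477 CPM) led the list, with log2 fold changes of 1.81 and 1.78. Ldha, lactate dehydrogenase A, measured 1365 and 1229.5 CPM and then 1911 and 1915 CPM (log2 fold change 0.56, SE 0.11, adjusted p = 0.00184). Nampt, the rate-limiting enzyme of NAD salvage, measured 75.3 and 66.7 and then 104 and 110.4 CPM (log2 fold change 0.60, SE 0.14, adjusted p = 0.00801), a call that was lost when either GFP replicate 2 or GFP + IL-1β replicate 2 was left out (adjusted p of up to 0.0756). In the pentose phosphate pathway 5 of 8 rose and none fell, with H6pd and Pgd at 1.32 and 1.11. The calls of G6pdx, Tkt and Taldo1 were lost in 2, 4 and 4 of the 4 fits that left a library out.

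Respiratory genes moved little. Of 74 nuclear-encoded subunits of oxidative phosphorylation 15 fell and none rose (11.7% of all genes tested fell), with a median of -0.22. Atp5g1, a subunit of ATP synthase, measured 141 and 135 CPM and then 93.2 and 92.6 CPM (log2 fold change -0.57, SE 0.12, adjusted p = 0.00416). Calls among these small falls depended on single libraries, those of Uqcrh, Ndufs5 and Ndufs8 being lost in 3, 2 and 4 of the 4 fits that left a library out. In the citrate cycle 3 of 20 fell (Sdhb -0.85, Idh2 -0.45 and Pdha1 -0.33) and none rose. The Pdha1 call was lost in 3 of the 4 fits that left a library out (adjusted p of up to 0.337), and Pdha1 overlaps Map3k15 on the opposite strand.

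Of the interferon-stimulated genes 4 of 25 rose, a share near the 15.2% of all genes tested, and 1 fell, with a median of 0.21. The members called were Gbp2 (4.37), Gbp7 (1.32), Bst2 (0.97), Eif2ak2 (0.46) and Ifit2 (-0.79), and those of Gbp7, Eif2ak2 and Ifit2 were lost when single libraries were left out (adjusted p of up to 0.105, 0.207 and 0.169). In antigen presentation by MHC class I 16 of 19 members rose, none fell and the median was 1.18. Tapbp, the peptide-loading protein tapasin, measured 66.5 and 66.4 CPM and then 226 and 237 CPM (log2 fold change 1.80, SE 0.10, adjusted p = 4.28e-08), and H2-K1 rose by 1.73. The H2 genes are near-identical in part, and reads that align to more than 1 of them were not counted, so they may be undercounted.

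Growth factors and antagonists rose in 19 of 49 cases and fell in 12 (15.2% and 11.7% of all genes tested). The fibroblast growth factor Fgf7 measured 3.11 and 4.31 CPM and then 33.0 and 30.0 CPM (log2 fold change 3.09, SE 0.19, adjusted p = 1.21e-07), and the BMP antagonist Grem1 rose by 1.61, while the antagonists Chrdl1 (-2.31), Nog (-1.70) and Sfrp5 (-4.62) fell. Of the hyaluronan genes 6 of 14 rose and 2 fell, with the receptor Cd44 at 1.64, the hyaluronan-binding protein Tnfaip6 at 2.78 and the synthase Has2 at -0.75. Genes of DNA replication and mitosis rose in 16 of 30 cases and none fell, with a median of 0.38. Cyclin E1 (Ccne1) measured 17.2 and 18.1 CPM and then 42.9 and 50.5 CPM (log2 fold change 1.41, SE 0.11, adjusted p = 1.45e-06), and the helicase subunits Mcm4 and Mcm3 rose by 1.02 and 1.00.

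**Figure D2:**
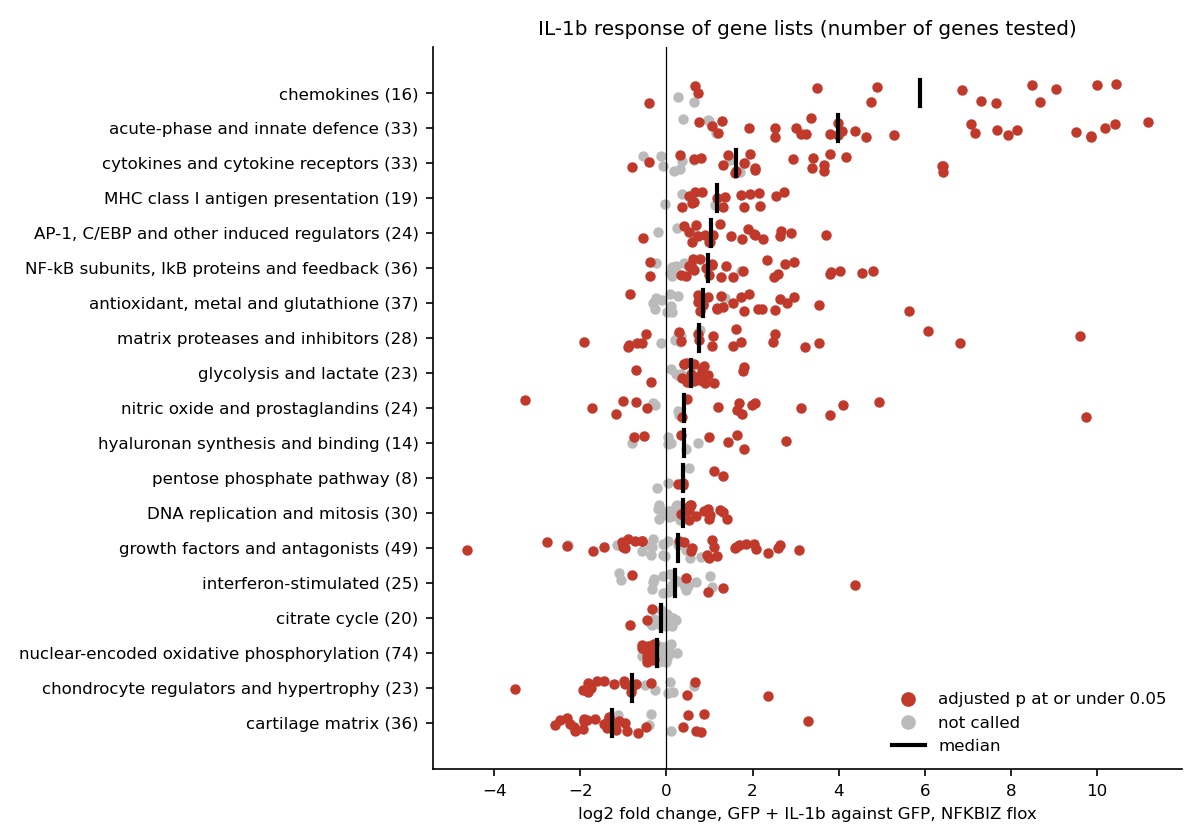
Log2 fold changes of listed genes (GFP + IL-1β against GFP, NFKBIZ flox), 1 point a gene tested, red where the adjusted p is at or under 0.05, with a bar at each list's median. Chemokines (median 5.88) and acute-phase genes (3.99) lie farthest to the right and cartilage matrix (-1.27) farthest to the left.

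The second question was which parts of the response were larger or smaller in NFKBIZ flox than in the other GFP-treated lines. In a single model of 12 GFP libraries the difference was the log2 fold change in NFKBIZ flox minus the mean of those in LDHA flox and NAMPT flox. It was called for 1235 of 15994 genes (7.72%), 910 with a positive difference (5.69%) and 325 with a negative one (2.03%), and the median over all genes was 0.04. LDHA flox and NAMPT flox differed from each other in 18 genes by the same test, with 1344 genes at an unadjusted p under 0.05. That test set 1 line against 1 line, whereas the 1235 genes were called against the mean of 2. Against LDHA flox alone 686 genes were called, and against NAMPT flox alone 1072.

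The bulk of the response was shared. In that model 3236 genes rose in NFKBIZ flox and 2244 rose in both other lines, and 1844 genes were in both sets, which is 57.0% of the first and 82.2% of the second. Of the falls, 3026 in NFKBIZ flox and 2525 in both others shared 1907, 63.0% and 75.5%. The 2244 rises had a median log2 fold change of 0.75 in NFKBIZ flox and 0.74 in the mean of the others. The 2525 falls had -0.44 and -0.53. The change was larger in size in NFKBIZ flox for 55.7% of these rises and 31.3% of these falls. Since the genes were chosen by calls in the other lines, the comparison favours larger responses there. Over all 15994 genes the NFKBIZ flox log2 fold changes had a Pearson r of 0.813 with the mean of the other lines, a correlation across genes, which are not independent replicates.

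By direction, 525 genes had a larger rise and 94 a larger fall in NFKBIZ flox, 121 had a smaller rise and 156 a smaller fall, and 339 had estimates of opposite sign. Of the 525 with a larger rise, 344 also had a lower untreated level in NFKBIZ flox and 55 a higher one, and with IL-1β 234 had a higher level and 149 a lower one. Since those levels enter the difference itself, these counts describe where it lies and are no further test. The sample titles come in 2 styles, taken here as 2 library sets. All NFKBIZ flox libraries were in the second set, whereas each condition of the other lines had 1 library in each set, so the model held the set as a term. In the second set alone, with 1 library a condition in the other lines, 432 genes were called, 424 of them among the 1235. Of the genes named in the following paragraphs, Ccl5, Ccl7, Ccl9, Cxcl10, Osmr, Panx3, Pfkfb3, Cd44, Ftl1, Lrrc17, Npr3 and Uqcr10 were not called in the second set alone (adjusted p from 0.0512 to 0.292). The response to IL-1β differed between the sets in 3 genes by a test within LDHA flox and NAMPT flox, with 520 at an unadjusted p under 0.05.

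The lines differed in markers of other cells. The fibroblast or perichondrium markers summed to 983 and 1170.2 CPM in untreated NFKBIZ flox and to between 4846 and 5736 CPM in the other lines, and with IL-1β to 779.7 and 755 against 3719 to 4425 CPM. Collagen Col1a1 stood at 396 and 571 CPM against 2639 to 3416 CPM untreated. Col10a1, the collagen of hypertrophic chondrocytes, stood at 96.3 and 101 CPM against 490.0 to 644 CPM. Of the 12 chondrocyte markers none had a called difference of response. The part of the cell makeup in the differences described next was not tested.

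**Figure D3:**
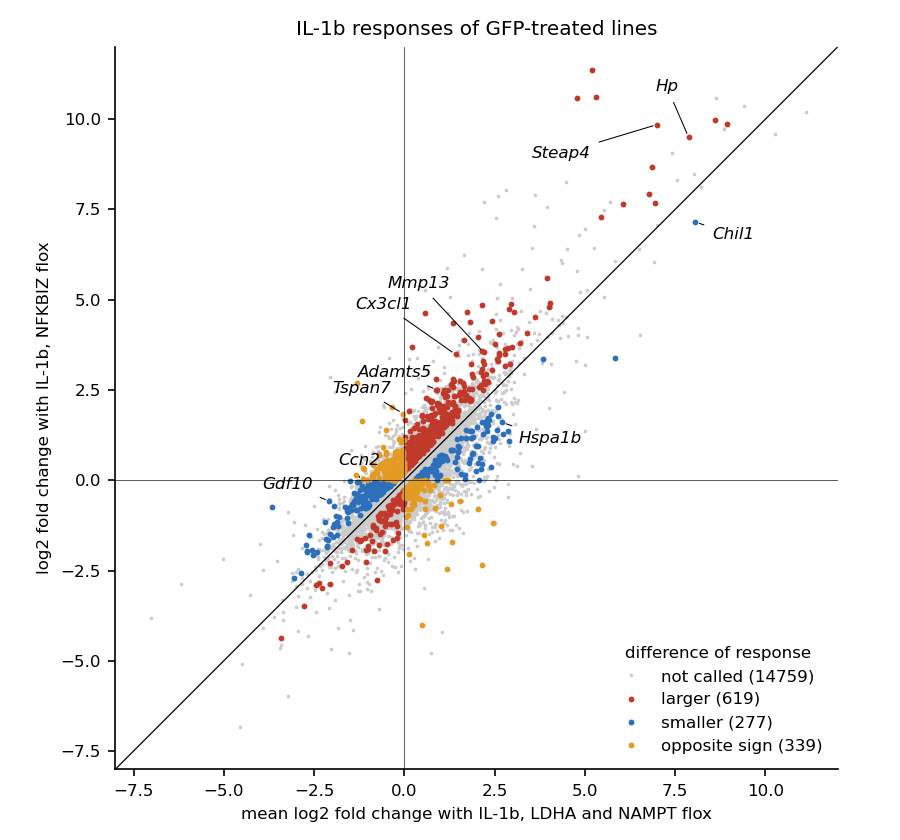
Log2 fold change with IL-1β in NFKBIZ flox (vertical) against the mean of LDHA and NAMPT flox (horizontal), 1 point for each of 15994 genes, with the line of equal response. Coloured points have a called difference (619 larger, 277 smaller and 339 of opposite sign in NFKBIZ flox), and most points lie along the line.

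The 10 genes with the clearest larger responses were all larger rises. Mmp13 started from levels that overlapped between the lines, 47.9 and 46.7 CPM in untreated NFKBIZ flox and 41.4 to 47.6 CPM in the others, and reached 560.3 and 548 CPM with IL-1β against 194 to 223 CPM (difference 1.34, SE 0.07, adjusted p = 3.84e-10). Adamts5 started lower, at 15.0 and 13.9 CPM against 29.8 to 34.9 CPM, and ended higher, at 86.0 and 80.0 CPM against 52.0 to 73.5 CPM (difference 1.61, SE 0.10, adjusted p = 6.38e-10). For both of these proteases the 2 NFKBIZ flox libraries with IL-1β lay above all 4 libraries of the other lines.

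Cx3cl1 (ENSMUSG00000031778, chr8:94772009-94782423) likewise stood at 7.75 and 9.58 CPM against 18.1 to 23.2 CPM untreated and 99.5 and 96.6 CPM against 53.3 to 57.4 CPM with IL-1β (difference 2.07, SE 0.12, adjusted p = 3.84e-10). Steap4 (ENSMUSG00000012428, chr5:7960472-7982213) stood at 0.724 and 0.805 against 1.06 to 2.56 CPM untreated and 716 and 718 against 225 to 260.4 CPM with IL-1β, the largest of the 10 differences (difference 2.85, SE 0.21, adjusted p = 3.18e-08). Ptx3, the long pentraxin, measured 688 and 707 CPM against 319 to 437 CPM with IL-1β (difference 1.30, SE 0.08, adjusted p = 1.06e-09). These 3 genes were lower than in the other lines before IL-1β and higher after it, with no overlap in either state.

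The vasopressin receptor Avpr1a (117 and 118 against 53.2 to 67.8 CPM with IL-1β) and the secretory-pathway kinase Fam20c (341 and 321 against 187 to 194 CPM) rose in every line and more in NFKBIZ flox, with differences of 1.38 and 0.98. The neuropilin Nrp2 differed chiefly before IL-1β, with 71.7 and 71.9 CPM against 162 to 197 CPM untreated and 248 and 259.9 against 238 to 266 CPM after it (difference 1.33, SE 0.07, adjusted p = 3.84e-10). Gys1, glycogen synthase, measured 137 and 135 and then 253 and 246 CPM in NFKBIZ flox, while its log2 fold change was 0.09 in LDHA flox and -0.07 in NAMPT flox (difference 0.85, SE 0.07, adjusted p = 1.13e-07). Ndrg1 had a difference of 1.00. Gys1 and Ndrg1 overlap genes on the opposite strand.

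The 9 genes described here with the clearest smaller responses held both smaller falls and smaller rises. Ccn2 (ENSMUSG00000019997, chr10:24595442-24598683), connective tissue growth factor, was 271 and 288 CPM untreated and 276 and 273 CPM with IL-1β in NFKBIZ flox, a log2 fold change of -0.02 that did not pass the test (adjusted p = 0.922). In the other lines it went from 351 to 382 CPM to 149.9 to 162 CPM (difference 1.20, SE 0.07, adjusted p = 5.02e-10). Gdf10, the BMP-related factor BMP3B, went from 39.6 and 39.8 CPM to 29.4 and 24.3 CPM in NFKBIZ flox and from 43.7 to 60.1 CPM to 11.4 to 12.9 CPM in the others (difference 1.50, SE 0.13, adjusted p = 1.73e-07). The fall of Gdf10 in NFKBIZ flox itself lost its call when GFP + IL-1β replicate 2 was left out (adjusted p = 0.122).

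Mest (difference 0.68) and the transglutaminase F13a1 (0.81) also fell less than elsewhere. Rtl3 had a difference of 0.94, while its log2 fold change in NFKBIZ flox, -0.27, did not pass in the fit of the 8 NFKBIZ flox libraries (adjusted p = 0.139). The fall of F13a1 in NFKBIZ flox was called in 2 of the 4 fits that left a library out, and it measured 78.9 and 72.9 CPM and then 52.5 and 57.1 CPM in NFKBIZ flox against 45.8 to 60.9 and then 19.9 to 22.1 CPM. Of the 10 leading rises Chil1 was the only one with a called smaller fold (difference -0.91, SE 0.08, adjusted p = 1.73e-07) although its levels were higher, with 41.8 and 40.9 CPM against 3.33 to 6.36 CPM untreated and 5830.1 and 6012 CPM against 948 to 1645 CPM with IL-1β. Ccn2 and Mest overlap genes on the opposite strand.

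Beside Chil1, the smaller rises among these 9 genes were in the stress genes Hspa1a, Hspa1b and Hmox1. Hspa1b, an inducible heat-shock protein of the HSP70 family, measured 62.9 and 85.9 CPM and then 245 and 211 CPM in NFKBIZ flox against 96.4 to 215 CPM and then 669 to 1348 CPM (difference -1.11, SE 0.12, adjusted p = 2.65e-06). Its near-identical neighbour Hspa1a had a difference of -1.18. Reads that align to both genes were not counted, so both may be undercounted. In the untreated wild-type libraries, which had no virus, Hspa1a stood at 0.846 and 1.71 CPM. Genotype and virus both differ between these and the floxed lines, so their parts cannot be told apart.

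Hmox1, haem oxygenase 1, measured 566 and 617 CPM and then 1048 and 1055 CPM in NFKBIZ flox and 411 to 494 CPM and then 1187 to 1430.1 CPM in the other lines (difference -0.66, SE 0.07, adjusted p = 3.99e-06). It was higher than elsewhere before IL-1β and lower after it. In the list of antioxidant, metal and glutathione genes 8 of 40 had a negative difference and 7 a positive one. Over all genes these shares were 2.03% and 5.69%, and the median difference of the list was 0.03. The 8 were Hmox1, the peroxiredoxins Prdx1 (-0.50) and Prdx6 (-0.53), Gclm (-0.54) and Gss (-0.52) of glutathione synthesis, the thioredoxin reductase Txnrd1 (-0.41), catalase Cat (-0.49) and ferritin light chain Ftl1 (-0.30). The call of Ftl1 was lost when NFKBIZ flox GFP + IL-1β replicate 2 was left out (adjusted p = 0.07). Prdx1 measured 331 and 331 CPM with IL-1β against 442 to 511 CPM, and Txnrd1 251 and 244 against 366 to 465 CPM. Slc39a8 went the other way, at 174 and 189 CPM against 44.5 to 72.0 CPM (difference 1.65, SE 0.15, adjusted p = 4.24e-07), as did the extracellular glutathione peroxidase Gpx3 (0.76). Gclm and Gss overlap genes on the opposite strand.

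Genes with estimates of opposite sign were led by Adamts1, Penk, Tspan7, Fbln5 and Emilin1. Penk, which encodes proenkephalin, rose from 34.4 and 37.2 CPM to 63.9 and 56.6 CPM in NFKBIZ flox and fell from 71.3 to 99.4 CPM to 51.5 to 60.9 CPM in the others (difference 1.24, SE 0.10, adjusted p = 5.97e-08). Tspan7, a tetraspanin, measured 4.73 and 5.47 CPM and then 19.4 and 17.7 CPM, while in the other lines it was 9.7 to 11.2 CPM untreated and 9.38 to 11.0 CPM with IL-1β (difference 1.89, SE 0.17, adjusted p = 2.2e-07). The protease Adamts1 was of the same kind, with log2 fold changes of 0.72 in NFKBIZ flox, -0.09 in LDHA flox and -0.09 in NAMPT flox (difference 0.81, SE 0.07, adjusted p = 1.73e-07). Fbln5 and Emilin1, elastic fibre proteins, had differences of 1.05 and 0.74. In 22 of the 339 genes every line had a called response in the model of 12 libraries, 19 higher in NFKBIZ flox and lower in both others, and Penk, Fbln5, Emilin1 and the cartilage proteoglycan Prelp were among them. In the fit of the 8 NFKBIZ flox libraries the Emilin1 response, 0.25, did not pass (adjusted p = 0.0935), and the Fbln5 rise lost its call in 2 of the 4 fits that left a library out (adjusted p of up to 0.086). Penk and Prelp overlap genes on the opposite strand.

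**Figure D4:**
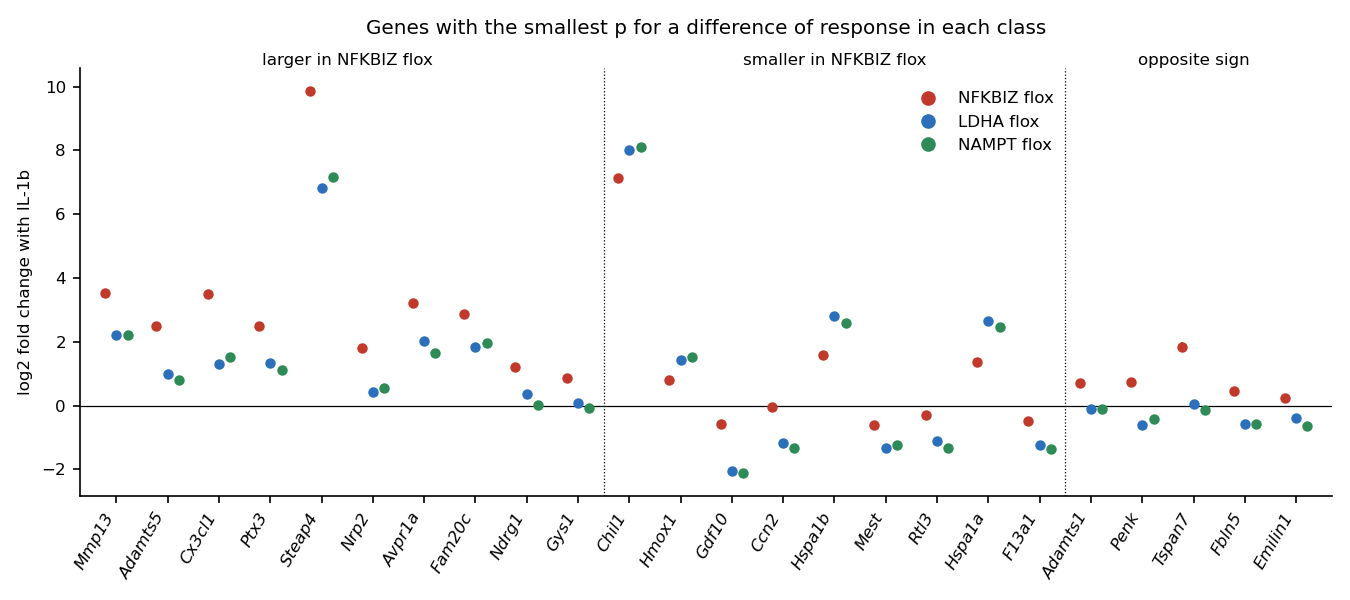
Log2 fold change with IL-1β in NFKBIZ, LDHA and NAMPT flox (points, with error bars of 1 SE that are mostly smaller than the points) for the 10 genes with the smallest p among larger responses, 9 among smaller and 5 of opposite sign. For Adamts5 the NFKBIZ flox value is 2.51 and the others are 1.00 in LDHA flox and 0.81 in NAMPT flox, and the LDHA and NAMPT points lie close together in most genes.

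**Figure D5:**
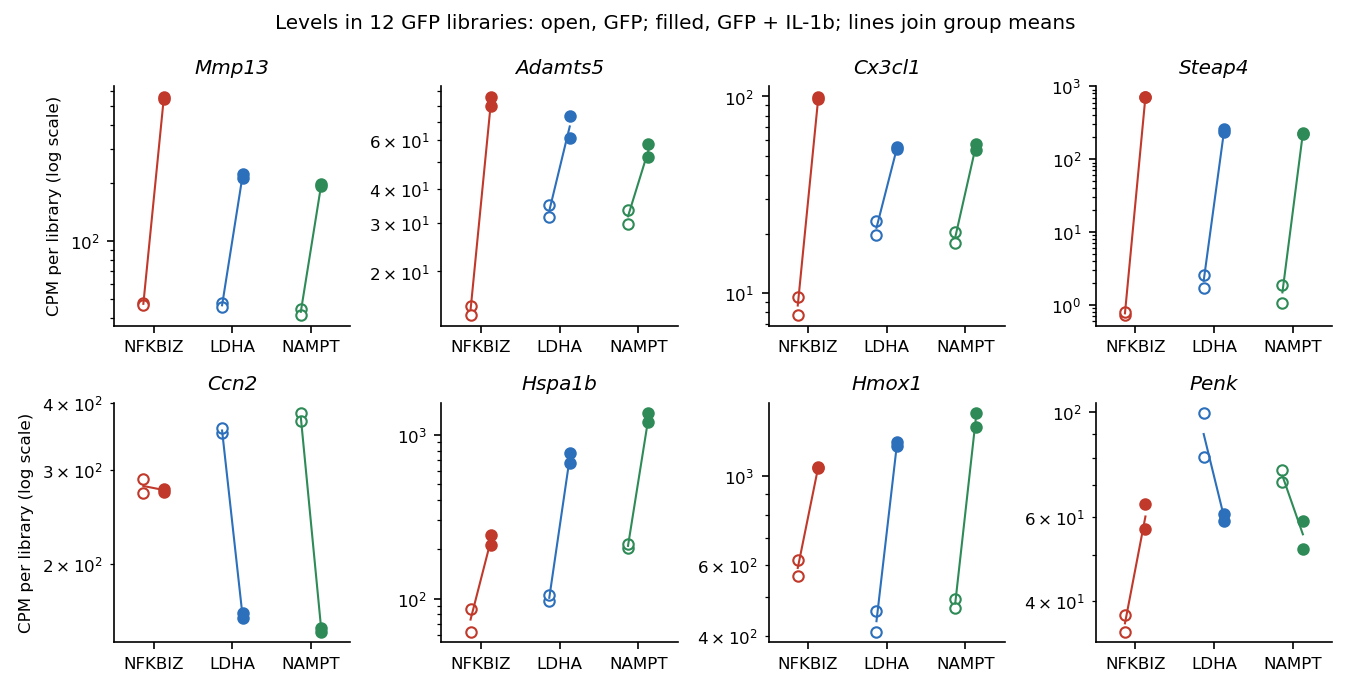
CPM per library on log axes for 8 of these genes in 12 GFP libraries, with open points untreated, filled points with IL-1β and lines that join group means. Mmp13 starts at overlapping levels in the 3 lines and ends higher in NFKBIZ flox, Ccn2 is flat in NFKBIZ flox and falls in the other 2, and Penk moves in opposite directions.

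By list, of 16 tested chemokines (26 listed) 9 had a positive difference and none a negative one (5.69% and 2.03% over all genes). Their median was 1.62 (1.61 with Ccl20 at its bound). Beside Cx3cl1 these were Ccl2 (1.59), Cxcl5 (1.81), Cxcl1 (1.39), Cxcl10 (1.85), Ccl5 (1.91), Ccl7 (1.84), Ccl9 (0.83) and Ccl20. Ccl2 stood at 1.45 and 1.41 CPM against 3.78 to 4.9 CPM untreated and at 281 and 297 CPM against 251 to 346 CPM with IL-1β, and Cxcl5 at 0.426 and 0.483 against 1.36 to 3.63 and then 188 and 191 against 235 to 292 CPM. In these 2 genes the larger fold came with a lower untreated level, and the level with IL-1β was not above that of the other lines. Cxcl1 with IL-1β was above them, at 557 and 512 CPM against 254 to 401 CPM, although its difference was not called by limma (adjusted p = 0.0681). The call of Ccl7 was lost when LDHA flox GFP replicate 1 or NFKBIZ flox GFP replicate 2 was left out (adjusted p of up to 0.185), and Cxcl10 overlaps Art3 on the opposite strand.

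Of 33 acute-phase and innate defence genes 14 had a positive difference and 1, Chil1, a negative one (5.69% and 2.03% over all genes), with a median of 0.69. Hp with IL-1β was 1872 and 1853 CPM against 626 to 1072 CPM (difference 1.63, SE 0.15, adjusted p = 3.08e-07), Lbp 723 and 691 against 166 to 229 CPM (difference 1.13, SE 0.18, adjusted p = 0.000369) and Lcn2 7043 and 7275 against 2751 to 3418 CPM (difference 0.71, SE 0.08, adjusted p = 3.06e-06). Saa3 had a difference of 0.92. Saa2, with no count before IL-1β, reached 13.0 and 11.8 CPM against 2.22 to 4.98 CPM. All of these levels with IL-1β lay above those of the other lines. C3, Slpi and Vnn1 had differences of -0.09, 0.06 and 0.22 that did not pass the test (adjusted p = 0.811, 0.837 and 0.23), and Mmp3 one of -0.68 (adjusted p = 0.0618).

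Of the 36 NF-κB regulators 9 had a positive difference and none a negative one (5.69% and 2.03% over all genes), with a median of 0.11. Nfkbiz itself reached 226 and 221 CPM against 159 to 197 CPM (difference 0.60, SE 0.10, adjusted p = 0.000668), and Zc3h12a and Bcl3 had differences of 0.79 and 0.90. Of the 24 AP-1, C/EBP and other regulators 9 were positive and none negative, with a median of 0.39, among them Cebpd (381 and 370.1 CPM against 216 to 262 CPM with IL-1β, difference 0.71) and Fosl2 (0.71). Matrix proteases and inhibitors had 10 positive and 1 negative of 29, with a median of 0.45. Bcl3 overlaps Gm16175 on the opposite strand.

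DNA replication and mitosis had 12 positive differences of 30 and none negative (5.69% and 2.03% over all genes), with a median of 0.29. Ccne1 went from 17.2 and 18.1 CPM to 42.9 and 50.5 CPM in NFKBIZ flox and from 29.9 to 33.4 CPM to 42.6 to 52.9 CPM in the others (difference 0.76, SE 0.11, adjusted p = 0.000119), and the helicase subunit Mcm5 from 34.3 and 34.6 CPM to 66.3 and 67.0 CPM against 88.7 to 110.4 CPM to 130.4 to 143 CPM (difference 0.54, SE 0.08, adjusted p = 0.0002). Untreated NFKBIZ flox libraries were below the other lines in both genes, and with IL-1β they overlapped them for Ccne1 and stayed below for Mcm5. Growth factors and antagonists had 14 positive and 2 negative of 48, Ccn2 and Gdf10 leading.

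Cytokines and receptors had 7 positive and 4 negative of 35 (5.69% and 2.03% over all genes), with Il4ra at 0.86 and Osmr at 0.40. The difference of Il6 did not pass (-0.10, adjusted p = 0.92). Cartilage matrix had 3 positive and 1 negative of 36, near those shares over all genes, with Prelp (0.89) and Col27a1 (0.44) among the members called. Acan and Col2a1 both had differences of -0.04 that did not pass (adjusted p = 0.885 and 0.836). Chondrocyte regulators and hypertrophy genes had 5 and 2 of 23, led by Spp1 (0.85) and Panx3 (0.73). Nitric oxide and prostaglandin genes had 4 and 5 of 24, with the synthases Ptges2 at 0.86 and Ptgis at -0.85. Hyaluronan genes had 4 and 1 of 15, with Cd44 at 0.41 and Cemip2 at 0.47. MHC class I genes had 4 and none of 19, with Tapbp at 0.46 and H2-K1 at 0.57. Ptgis and Tapbp overlap genes on the opposite strand.

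Glycolysis and lactate genes had 5 positive differences of 23 and none negative (5.69% and 2.03% over all genes), with Slc16a1 at 0.59 and Pfkfb3 at 0.37. Ldha had -0.10 (adjusted p = 0.489). The pentose phosphate pathway had 1 positive, H6pd (0.72), and 1 negative, Taldo1 (-0.42), of 8. None of 20 citrate cycle genes and 1 of 75 subunits of oxidative phosphorylation had a called difference, the latter being Uqcr10 (0.31), whose call was lost in 9 of 12 fits that left a library out (adjusted p of up to 0.157). None of 32 interferon-stimulated genes was called.

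Of the 10 leading falls in NFKBIZ flox, Smpd3 (-0.95), C1qtnf3 (-0.73) and Zim1 (-0.48) fell further than in the other lines, and Ppp1r1b (0.46), Lrrc17 (0.37) and Npr3 (0.30) fell less. Smpd3 ended at 4.71 and 5.04 CPM against 4.85 to 7.05 CPM from 99.6 and 101 CPM against 57.5 to 63.7 CPM. The calls of Lrrc17 and Npr3 were lost in 8 and 11 of 12 fits that left a library out (adjusted p of up to 0.162 and 0.269). Matn1, Matn3, Smoc2 and Padi2 had differences between -0.18 and 0.11 that did not pass.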

How the data were processed

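RNA of primary mouse chondrocytes was depleted of ribosomal RNA before library preparation. Reads were aligned by the authors with STAR to Ensembl release 76 (GRCm38) and counted per gene with featureCounts. Whether counting used the strand is not given in the sources used here. The authors deposited raw counts beside CPM and RPKM values of the same genes. Only the deposited counts were tested here, and the deposited CPM equal the count over the library total. Of 41388 genes, 40340 were named from GENCODE M21, and 355 ribosomal RNA genes were left out.

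Genes above 1 CPM in at least 1 library were fitted with edgeR 4.0.16 (TMM factors, quasi-likelihood test, R 4.3.3), with Benjamini-Hochberg adjustment over all genes tested. The response was fitted over the 8 NFKBIZ flox libraries, the 4 Cre libraries sharing in the estimate of spread. The difference of response was fitted over 12 GFP libraries with the library set as an additive term. Printed CPM use TMM factors over these 12 and the 4 wild-type libraries. Alternatives were DESeq2 1.42.0, limma 3.58.1 (voom with quality weights), RLE factors, other filters, other sets of libraries and leaving out each library. Figures were drawn with matplotlib 3.10.9.

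The genes named are the 10 rises and 10 falls with the smallest p, the 10 larger, 10 smaller and 5 opposite differences with the smallest p, the leading members of each list, the floxed genes, and genes the study names for its IL-1β sequencing. Of other list members with a called difference only the counts are given, and 1 of the 10 smaller differences is not reported here. Chemokines and the negative antioxidant differences are named in full. The comparisons, lists and rules were chosen with earlier results of these data known. Promoter sequences are from RefSeq.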

Additional observations from a re-analysis of the deposited data

Results flagged for a closer look

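The response of NFKBIZ flox to IL-1β differed from the mean response of LDHA flox and NAMPT flox in 1235 genes by a test of the difference itself (edgeR's quasi-likelihood test of the interaction, adjusted p at or under 0.05), and the differences of 74 of them are given in the text. Ccl20 and Saa2 were also called, but had no count in untreated NFKBIZ flox and get no fitted value. The values that follow are log2 differences, NFKBIZ flox minus the others. A positive value is a larger rise or a smaller fall in NFKBIZ flox.

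Among chemokines, cytokine receptors and acute-phase genes the differences were Cx3cl1 2.07, Ccl5 1.91, Cxcl10 1.85, Ccl7 1.84, Cxcl5 1.81, Ccl2 1.59, Cxcl1 1.39, Ccl9 0.83, Il4ra 0.86, Osmr 0.40, Steap4 2.85, Hp 1.63, Ptx3 1.30, Lbp 1.13, Saa3 0.92 and Lcn2 0.71, with Chil1 at -0.91. Among regulators they were Bcl3 0.90, Zc3h12a 0.79, Cebpd 0.71, Fosl2 0.71 and Nfkbiz 0.60. Proteases and matrix genes had Adamts5 1.61, Mmp13 1.34, Adamts1 0.81, Prelp 0.89, Spp1 0.85, Panx3 0.73, Col27a1 0.44, Fbln5 1.05 and Emilin1 0.74.

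Stress and redox genes had negative differences for Hspa1a -1.18, Hspa1b -1.11, Hmox1 -0.66, Gclm -0.54, Prdx6 -0.53, Gss -0.52, Prdx1 -0.50, Cat -0.49, Txnrd1 -0.41 and Ftl1 -0.30, and positive ones for Slc39a8 1.65 and Gpx3 0.76. Only the negative differences of the antioxidant, metal and glutathione list are named in full. That list held 8 negative and 7 positive differences, with a median of 0.03. Growth factor, hyaluronan, antigen presentation and cell cycle genes had Gdf10 1.50, Ccn2 1.20, Cd44 0.41, Cemip2 0.47, H2-K1 0.57, Tapbp 0.46, Ccne1 0.76 and Mcm5 0.54. Prostaglandin and metabolic genes had Ptges2 0.86, Ptgis -0.85, Gys1 0.85, H6pd 0.72, Slc16a1 0.59, Pfkfb3 0.37, Uqcr10 0.31 and Taldo1 -0.42.

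The other genes were Tspan7 1.89, Avpr1a 1.38, Nrp2 1.33, Penk 1.24, Ndrg1 1.00, Fam20c 0.98, Rtl3 0.94, F13a1 0.81 and Mest 0.68. Of the leading falls the differences were Smpd3 -0.95, C1qtnf3 -0.73, Zim1 -0.48, Ppp1r1b 0.46, Lrrc17 0.37 and Npr3 0.30. Groups of 2 libraries are too small for a search for single outlying libraries.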

How the results depend on the processing

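The response counts stayed within 1.5 times of 4120 genes with RLE factors, DESeq2, limma, edgeR's own filter on low counts, no filter and the model of 12 libraries. With the 4 GFP libraries alone 5686 genes were called, and 2701 fell against 1790. Leaving out 1 library gave 2487 to 2799 genes called, 1470 to 1618 higher and 1000 to 1181 lower. The called counts were 2563 without GFP replicate 1, 2487 without GFP + IL-1β replicate 1 and 2547 without GFP + IL-1β replicate 2. Without GFP replicate 2 the falls numbered 1181, and the log2 fold change of Ccn2, which was not called, turned from -0.02 to 0.02 (-0.07 to 0.02 over the 4 fits).

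The difference counts depended more on the choices. Against 1235 genes called, 910 positive and 325 negative, there were 571, 431 and 140 with no term for the library set, and 432, 309 and 123 in the second set alone. With the response allowed to differ between sets there were 725, 546 and 179, and against LDHA flox alone 686, 507 and 179. The cause was not tested, except that the second set alone has fewer libraries. Leaving out 1 library gave 732 to 1454 called, 552 to 968 positive and 168 to 486 negative. The called counts were 819 and 732 without NFKBIZ flox GFP + IL-1β replicate 1 and 2, and 811 without NAMPT flox GFP replicate 2. The positive counts were 586 without LDHA flox GFP replicate 1 and 567 without NFKBIZ flox GFP replicate 1. The other tools and filters stayed within 1.5 times.

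Over the genes named, 1488 of 1540 alternative values of the response and 1554 of 1628 of the difference kept their direction and their side of the threshold. Beside those of the second set alone, differences that lost their call were Cxcl1, Ccl5 and Ccl7 with limma, Npr3 and Uqcr10 with RLE factors, DESeq2 or edgeR's own filter, Npr3 with no filter, Npr3, Lrrc17, Osmr, H2-K1, Taldo1, Uqcr10 and Ftl1 with no set term, Npr3, Lrrc17, Ccl5, Ccl7 and Ccl9 with the response allowed to differ between sets, Npr3, Lrrc17 and Ftl1 against NAMPT flox alone, and Lrrc17, Ccl7, Ccl9, H2-K1, Pfkfb3 and Uqcr10 against LDHA flox alone. In groups of 2 libraries left with 1, the lone library is assumed to vary like the other groups. No paired analysis was run, because the labels give the libraries of a group no replicate numbers and tie no NFKBIZ flox GFP library to a GFP + IL-1β library. Only the running order of the numbers in the sample titles could pair them, and a block by that order was not fitted. In the other lines the replicates are the library sets, which the model holds as a term. Depth limits the genes with few reads, such as Saa2 and Ccl20 in untreated cells.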

Other observations

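The wild-type libraries without virus were not used in a test. Mmp3 in the first set measured 1.05 CPM untreated and 8986 CPM under the IL-1β label. In the second set it measured 0.799 CPM and 0.775 CPM, so the second of these, although labelled as treated, lacked the rise of Mmp3 that the 3 floxed lines showed.

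Fabp4, a fatty acid binding protein, stood at 13.0 and 13.7 CPM in untreated NFKBIZ flox and at 62.3 and 62.4 CPM with IL-1β (log2 fold change 2.23). In LDHA flox and NAMPT flox the libraries with IL-1β held 14.4 to 19.8 CPM. Plin1, which marks mature fat cells, was at or below 1.05 CPM in all 4 NFKBIZ flox libraries.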
